A study of Homo sapiens with 16 samples.

Results

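The comparison set untreated U937 cells against untreated KG1A cells, both established human leukaemia lines. U937 is a promonocytic line, and KG1A is an immature line. All 8 libraries came from cells given the DMSO vehicle: 4 libraries of U937 and 4 of KG1A, out of 16 in the series. The other 8 libraries, from the same lines given NEL at 10 µM, were not used here. The culture medium of both groups was RPMI, supplemented with dialyzed serum, and polyadenylated RNA was sequenced. Of 34618 genes in the count table, 15181 passed a filter on low counts within the 8 libraries and were tested. The question was how the transcriptomes of a promonocytic and an immature line differ before any drug is given.

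As background, blood cells descend from CD34-bearing stem and progenitor cells, whose state is held by transcription factors such as GATA2, ERG and RUNX1. Entry into the monocyte and granulocyte lineages depends on the factors PU.1 (encoded by SPI1) and C/EBP-alpha, which switch on granule proteases, phagocyte receptors and lysosomal enzymes. IRF8 acts in monocytes and dendritic cells. KG1A is a subline of KG-1 that carries a fusion of FGFR1OP2 to FGFR1, and U937 carries a fusion of PICALM to MLLT10. Each line comes from a single patient, so the stage of differentiation, the driver lesions and the donor cannot be told apart in this comparison.

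Depth was even across the libraries, with 10900129 to 11049006 counts in KG1A and 11524192 to 11777684 in U937. The share of counts from mitochondrial genes was 9.12% ± 0.92 (SD, n = 4) in KG1A and 8.05% ± 1.04 (SD, n = 4) in U937. Levels are given as CPM, which are counts scaled to library size with TMM factors, and 3 counts over the 4 libraries of a group correspond to 0.0698 CPM in KG1A and 0.0631 CPM in U937. A principal component analysis put 98.9% of the variance on the component that separated the lines. The next component held 0.456% and separated libraries 1 and 3 from libraries 2 and 4 in both lines, so those sets stood apart, and each was also analysed alone. Nothing in the labels ties the libraries to cultures of their own, and the p-values cover library-to-library spread only, which may be technical.

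The lines differed in most of what they expressed. At an adjusted p under 0.05 (edgeR's quasi-likelihood test), 6528 genes were higher in U937 (43.0% of those tested) and 6595 were lower (43.4%). With a size of at least 4-fold as well, 1704 genes were higher (11.2%) and 1952 were lower (12.9%). The 4 libraries of a line did not overlap with the 4 of the other line for 12367 genes (81.5%). The median log2 fold change of all tested genes was 0.00, with quartiles at -0.90 and 0.79, and every list of genes described here is read against those figures. Where genes with no read in a line shift a list's median, the median with those genes set at their bound of 3 reads over the group is given beside it. There were 358 genes with no count in any KG1A library and a mean of at least 1 CPM in U937, and 500 genes with the opposite pattern. Both lines expressed 12167 genes at 1 CPM or more.

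CD34, the surface sialomucin that marks stem and progenitor cells, was abundant in KG1A and nearly absent from U937. Its level was 942, 862, 921 and 837 CPM in the KG1A libraries and 0.254, 0.672, 0 and 0.333 CPM in the U937 libraries. All 4 KG1A libraries lay far above all 4 of U937, in which 15 reads in total fell on the gene. The log2 fold change of CD34 (ENSG00000174059; GRCh37 chromosome 1, 208057594 to 208084747) was -11.41 ± 0.14 (SE; adjusted p = 1.21e-19). Of 36 stem and progenitor genes looked up, 29 were tested, of which 23 were lower in U937 and 6 were higher, with a median log2 fold change of -3.73. In this list 17 genes were at least 4-fold lower and 2 were at least 4-fold higher. Because RNA was taken from whole cultures, fewer cells that express a gene and less of its RNA per cell cannot be told apart.

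Other genes of stem and progenitor cells differed by unlike amounts. NRIP1, a nuclear receptor corepressor, had 348, 347, 339.6 and 339 CPM in KG1A and 0.0847 to 0.169 CPM in U937. ANGPT1, the ligand of the TIE2 receptor, had 203, 213, 213 and 215 CPM in KG1A and at most 0.252 CPM in U937. Both were thus near the detection limit in U937, with log2 fold changes of -11.29 ± 0.10 and -11.11 ± 0.14 (SE). GATA2, a zinc-finger factor of stem cells and mast cells, had 166, 155, 174 and 153 CPM in KG1A and a mean of 1.92 ± 0.37 CPM in U937 (SD, n = 4), a log2 fold change of -6.40 ± 0.09 (adjusted p = 5.98e-19). RUNX1, the core-binding factor subunit often hit in leukaemia, was present in both lines. It measured 365, 336, 343 and 329 CPM in KG1A and 87.5, 82.8, 87.2 and 83.1 CPM in U937, a log2 fold change of -2.01 ± 0.05 (adjusted p = 1.49e-16). KIT, the stem cell factor receptor, was low in both lines, with 1.96 to 2.46 CPM in KG1A and 0.0833 to 1.10 CPM in U937. Its log2 fold change was -1.99 ± 0.38 (adjusted p = 0.000117), and it was -1.30 in the odd-numbered libraries and -3.52 in the even-numbered ones. FLT3, another class III receptor, had 2 reads in KG1A and 14 in U937 and was not tested.

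The immature pattern had exceptions. MEIS1, a HOX cofactor tied to leukaemic self-renewal, was read 5 times in KG1A and 4196 times in U937. Its levels were 0, 0.371, 0.0932 and 0 CPM in KG1A and 81.3, 93.2, 87.4 and 91.0 CPM in U937, a log2 fold change of 9.44 ± 0.19 (adjusted p = 3.84e-17). HLF, a bZIP factor of stem cells, was also higher in U937, at 6.45 ± 0.41 CPM against 0.512 ± 0.193 (SD, n = 4 each). ITGA6, an integrin of primitive cells, was higher in U937 with a log2 fold change of 0.98. Of the genes in a published leukaemic stem cell score, 16 were tested, 14 of which were lower in U937 and 2 higher, with a median log2 fold change of -7.30, or -6.07 at the bounds. In that score MMRN1, a secreted multimerin, had 299, 313, 305 and 314 CPM in KG1A and 3 reads in all of U937, a ratio of 4878 with a 95% counting interval of 1669 to 23659. The 2 members higher in U937 were DPYSL3, with 1 read in KG1A and 314 in U937, and ZBTB46, with a log2 fold change of 2.03. Members were counted alike, without any weight or sign the score gives them. The counts and median are thus not a value of the score, and a higher member need not mean a higher score.

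**Figure D1:**
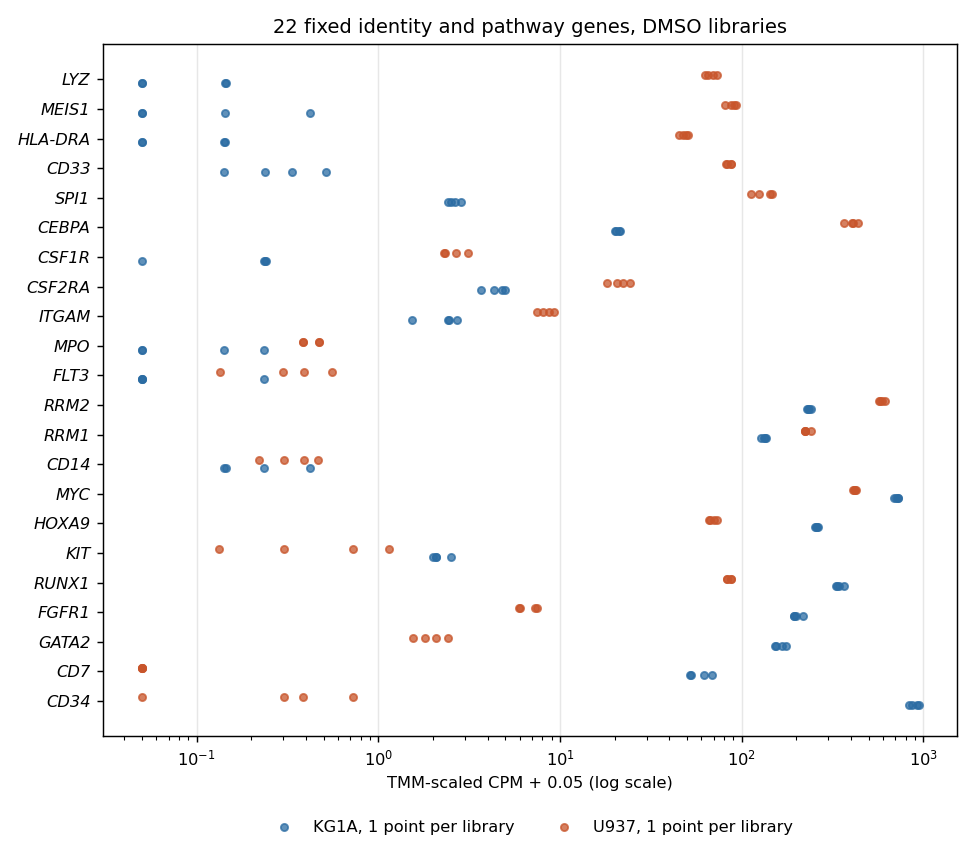
Level of 22 identity and pathway genes in each DMSO library, as TMM-scaled CPM plus 0.05 on a log axis, with KG1A in blue and U937 in orange and 1 point per library. CD34, CD7, GATA2 and FGFR1 lie to the right in KG1A, CD33, SPI1, LYZ and MEIS1 lie to the right in U937, and FLT3, CD14 and MPO stay under 1 CPM in both.

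Most of the monocyte genes measured were higher in U937. CD33, a sialic acid binding receptor of myeloid cells, had 86.8, 81.5, 87.8 and 82.8 CPM in U937 and 0.284, 0.464, 0.186 and 0.0917 CPM in KG1A. The U937 libraries lay close together and all above KG1A, and the log2 fold change was 8.31 ± 0.14 (SE; adjusted p = 2.47e-18). LYZ, which encodes lysozyme, had 62.6, 69.4, 65.3 and 72.7 CPM in U937 and 2 reads in all of KG1A, a ratio of 1452 with a 95% counting interval of 402 to 11994. Of 53 monocyte and macrophage genes looked up, 38 were tested, 32 were higher in U937 and 6 were lower, with a median log2 fold change of 7.93, or 5.71 with the 12 genes that had no read in a line at their bound. Among them 29 were at least 4-fold higher and 4 were at least 4-fold lower. Summed over the list, KG1A had 486 to 495 CPM and U937 2107 to 2136 CPM per library.

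Within this list, genes silent in KG1A were common. CPVL, a serine carboxypeptidase of macrophages, had no read in KG1A and 61.3, 64.2, 61.9 and 65.0 CPM in U937, at least 905-fold higher when KG1A is set at 3 reads over the group. MNDA, a nuclear antigen of myeloid cells, likewise had no read in KG1A and 24.3, 23.8, 26.4 and 26.1 CPM in U937, at least 361-fold higher. CD4, the coreceptor that monocytes share with helper T cells, had 3 reads in KG1A and 191, 179, 183 and 169 CPM in U937. These genes were at steady levels across the 4 U937 libraries. TLR4, the receptor for bacterial lipopolysaccharide, and CD36, a scavenger receptor, were picked after their values were seen, and their U937 means were 50.1 ± 2.63 and 248 ± 12.9 CPM. ITGAM, the integrin chain CD11b, rose less far above KG1A, with 9.23, 8.65, 7.44 and 7.99 CPM against 2.37, 2.41, 1.49 and 2.66 CPM, a log2 fold change of 1.89 ± 0.16 (adjusted p = 7.04e-09). CSF1R, the receptor for macrophage colony-stimulating factor, stayed low in U937 at 3.05, 2.27, 2.62 and 2.25 CPM, a log2 fold change of 4.08 ± 0.37 (adjusted p = 2.18e-08). CD14, a marker of mature monocytes, had 8 reads in KG1A and 14 in U937 and was not tested.

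A few macrophage genes went the other way. MSR1, a scavenger receptor, had 1037 reads in KG1A, at similar levels in its 4 libraries, and no read in U937, at least 382-fold lower there. VCAN, a matrix proteoglycan, had 323 reads in KG1A and 1 in U937. MS4A7, a tetraspanning membrane protein of macrophages, was lower in U937 with a log2 fold change of -1.09.

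Neutrophil serine proteases were among the genes with the largest ratios on the U937 side. PRTN3, which encodes proteinase 3, had 989, 938, 974 and 899 CPM in U937 and 2 reads in KG1A. That is 45161 reads against 2, a ratio of 20414 with a 95% counting interval of 5651 to 168567. ELANE, neutrophil elastase, had 427, 392, 386 and 356 CPM in U937 and 0, 0.0927, 0 and 0.275 CPM in KG1A, a log2 fold change of 11.87 ± 0.16 (adjusted p = 2.80e-19). CTSG, cathepsin G, was named after its values were seen and had 1176, 1208, 1165 and 1198 CPM in U937 against 0.947 to 1.48 CPM in KG1A. Of 17 tested granulocyte and primary granule genes, 14 were higher in U937, 2 were lower and 1 was not called, with a median log2 fold change of 7.20, or 6.43 at the bounds, and 13 were at least 4-fold higher. The exceptions were CTSC, the protease that activates granule proteases, at 1119 ± 16.1 CPM in KG1A and 298 ± 7.54 CPM in U937, and SERPINB1, an elastase inhibitor, with a log2 fold change of -0.49. MPO, myeloperoxidase, had 3 reads in KG1A and 18 in U937 and was not tested. RNASE2 and RNASE3 are close copies of each other, so the authors' counting may have divided reads between them.

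Short stretches upstream of the granule genes are shown because letters of the C/EBP motif recurred in them. The letters TTGCNNAA were searched on both strands of the 250 bases before each start in RefSeq (GRCh38.p14). A match was found for 7 of 14 granule list genes with an entry (50%), for 6.13% of the 10867 tested genes with an entry, and for 9.13% of all 27305 promoters. Capitals mark the match, and the windows were chosen after the values were seen. They lie at chr19:840927-840954 (PRTN3, plus strand), chr19:827716-827743 (AZU1, plus strand), chr14:20891281-20891308 (RNASE3, plus strand), chr14:20955332-20955359 (RNASE2, plus strand), chr11:102725040-102725067 (MMP8, minus strand) and chr11:60056422-60056449 (MS4A3, plus strand).
PRTN3: agcctgggcaTTGGGCAActcaacggcc
AZU1: ggtggaggccTTGGGCAAtttcccgtgt
RNASE3: aaaaggatgaTTGCACAAgtggaccatg
RNASE2: aaaaggatgaTTGCACAAgtggactatg
MMP8: cattataaaaTTGCAAAActgtcagagt
MS4A3: cagcaatgtgTTAAGCAAcatctgaaag
Windows were taken only from genes at least 4-fold higher in U937, so the direction of these 6 was set by that choice. Among the 14 genes with an entry, a match was present for 6 of 10 at least 4-fold higher and 1 of the other 4. The windows of RNASE3 and RNASE2, close copies of each other, are nearly identical but were counted as separate matches. PRTN3 and AZU1 hold the same matched letters, so these counts may not be of independent recurrences. Over the 250 bases the granule promoters had a median of 5 CpG pairs and the tested genes a median of 21, so base composition differed between the sets. A match is a description of letters and not a measured site.

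**Figure D2:**
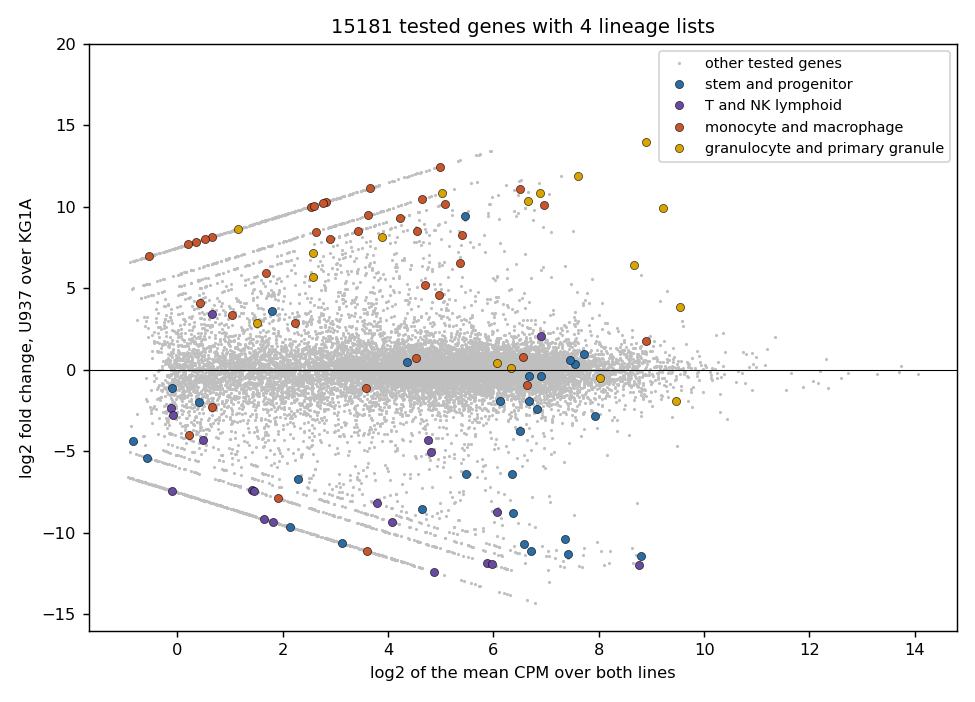
Log2 fold change, U937 over KG1A, against the log2 of the mean CPM over both lines for the 15181 tested genes (grey), with 4 lineage lists in colour. Monocyte and granule genes lie mostly above 0 and stem and T and NK genes mostly below 0, and slanted lines of points are genes with few or no reads in 1 line, whose fitted values are not bounds.

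Transcription factors of these lineages also differed. SPI1, which encodes PU.1, had 146, 125, 143 and 113 CPM in U937 and 2.46, 2.60, 2.79 and 2.38 CPM in KG1A, a log2 fold change of 5.68 ± 0.12 (SE; adjusted p = 3.88e-17). CEBPA, which encodes C/EBP-alpha, had 435, 407, 409 and 368 CPM in U937 and 20.7 ± 0.716 CPM in KG1A (SD, n = 4), a log2 fold change of 4.29 ± 0.06 (adjusted p = 5.62e-19). The groups did not overlap for either factor. IRF8, a factor of monocytes and dendritic cells, had 226, 234, 231 and 245 CPM in U937 and 3 reads in KG1A, and CEBPE, a late granulocyte factor, had 1191 reads in U937 and none in KG1A. KG1A instead expressed GFI1B, a repressor of the erythroid and megakaryocytic lineages, at 155, 149, 159 and 150.5 CPM, where U937 had 1 read in all. Its paralog GFI1, named after its values were seen, was in both lines, at 57.9 ± 1.27 CPM in KG1A and 394 ± 8.71 CPM in U937. Of 35 tested myeloid transcription factors, 23 were higher in U937, 10 were lower and 2 were not called, with a median log2 fold change of 0.69. CBFB, the partner of RUNX1, was among those not called, at 115 ± 2.98 and 119.9 ± 3.05 CPM (adjusted p = 0.21). Over all tested genes, 43.0% were higher and 43.4% lower. By the 4-fold limit, 10 of the 35 factors were higher and 4 lower, against 11.2% and 12.9% of all tested genes.

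Promoters of 4 of these identity genes are shown in full, because their genes had few or no reads in the other line. Each run is the 250 bases before the RefSeq start (GRCh38.p14), read 5′ to 3′ on the gene's strand. They lie at chr1:207911126-207911375 (CD34, minus strand), chr9:132945281-132945530 (GFI1B, plus strand), chr16:85902580-85902829 (IRF8, plus strand) and chr1:158831101-158831350 (MNDA, plus strand). Capitals mark matches on either strand to motif letters. The letters searched were GAGGAAGT for PU.1, TTGCNNAA for C/EBP factors and GAAANNGAA for IRF factors. For GATA factors they were AGATAA. For RUNX factors the letters were TGTGGT.
CD34: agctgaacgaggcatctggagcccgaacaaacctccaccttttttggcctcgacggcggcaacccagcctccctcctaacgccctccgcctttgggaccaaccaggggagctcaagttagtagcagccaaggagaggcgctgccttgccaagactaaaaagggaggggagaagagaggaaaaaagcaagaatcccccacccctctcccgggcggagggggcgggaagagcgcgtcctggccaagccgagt
GFI1B: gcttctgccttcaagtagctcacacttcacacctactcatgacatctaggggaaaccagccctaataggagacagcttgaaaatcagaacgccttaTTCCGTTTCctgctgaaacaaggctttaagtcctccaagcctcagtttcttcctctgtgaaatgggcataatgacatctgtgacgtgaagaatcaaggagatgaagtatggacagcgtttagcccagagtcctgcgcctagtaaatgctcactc
IRF8: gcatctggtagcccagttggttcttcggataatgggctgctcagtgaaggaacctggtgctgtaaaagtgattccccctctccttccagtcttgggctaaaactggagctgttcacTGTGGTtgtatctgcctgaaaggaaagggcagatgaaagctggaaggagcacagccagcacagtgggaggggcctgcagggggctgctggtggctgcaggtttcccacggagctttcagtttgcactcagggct
MNDA: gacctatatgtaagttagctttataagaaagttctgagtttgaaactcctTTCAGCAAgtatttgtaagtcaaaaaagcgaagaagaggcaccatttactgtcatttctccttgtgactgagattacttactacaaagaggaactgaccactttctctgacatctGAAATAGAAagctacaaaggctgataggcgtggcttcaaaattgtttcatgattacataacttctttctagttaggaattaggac
The CD34 window held no match and 14 CpG pairs. The GFI1B window held an IRF match at -154, the IRF8 window a RUNX match at -134, and the MNDA window a C/EBP match at -200 and an IRF match at -85. Of all promoters, 10.9% held the RUNX letters, 7.06% the IRF letters, 9.37% the GATA letters and 2.13% the PU.1 letters. The shares of RUNX letters in genes at least 4-fold higher and at least 4-fold lower in U937 were 8.25% and 9.94%, against 7.91% of all tested genes. The windows of NRIP1 and CPVL, chosen by the same rule, held no match and are not printed.

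HOX genes were active in both lines, with different members in use. HOXA9, a leukaemia-linked homeobox gene, had 255, 263, 255 and 259 CPM in KG1A and 66.2, 70.2, 66.5 and 73.0 CPM in U937, a log2 fold change of -1.90 ± 0.04 (SE; adjusted p = 1.98e-16). HOXA7, its neighbour, had 92.2, 80.1, 87.4 and 76.9 CPM in KG1A and 5.84, 5.21, 6.93 and 4.41 CPM in U937, a log2 fold change of -3.91 ± 0.10. At the far end of the cluster the order turned. HOXA13 had no read in KG1A and 104, 109.7, 101 and 107 CPM in U937, at least 1509-fold higher. HOXA11, named after its values were seen, had 2.32 ± 0.60 CPM in KG1A and 47.0 ± 2.01 CPM in U937, and HOXA10, named likewise, was closer to level at 99.8 ± 5.77 and 134 ± 8.74 CPM. Each HOXA gene tested from HOXA2 to HOXA9 was thus lower in U937, and those from HOXA10 to HOXA13 were higher. Antisense and overlapping transcripts run through this cluster and whether counting used strand is not given in the sources used here, so reads of neighbours may be mixed.

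Outside HOXA the lines also used different genes. HOXB2 had 85.8, 76.3, 88.7 and 73.8 CPM in KG1A and 6 reads in U937, and HOXC6 had 290 reads in U937 and none in KG1A, at least 87.4-fold higher. The TALE cofactors were exchanged. MEIS1 was the U937 gene, and MEIS2 had 101, 96.1, 107 and 99.3 CPM in KG1A against 0.169, 0, 0.0845 and 0.0833 CPM in U937, a log2 fold change of -10.05 ± 0.15 (adjusted p = 7.66e-19). Per transcript length, MEIS1 in U937 had 8.23 RPKM and MEIS2 in KG1A had 9.15 RPKM. Of the 20 HOX, MEIS and PBX genes tested, 8 were higher in U937, 11 were lower and 1 was not called, with a median log2 fold change of -0.94. Over all tested genes, 43.0% were higher and 43.4% lower. By the 4-fold limit, 7 of these genes were higher and 6 lower, against 11.2% and 12.9% of all tested genes.

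**Figure D3:**
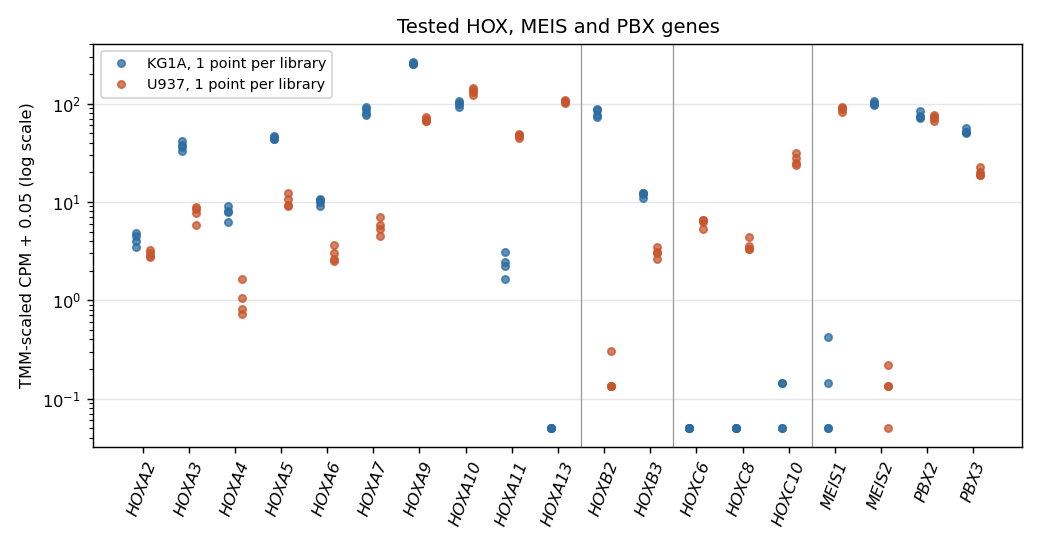
TMM-scaled CPM plus 0.05 on a log axis for 19 tested HOX, MEIS and PBX genes in each library, KG1A in blue and U937 in orange, with lines between the gene clusters. HOXA2 to HOXA9 are higher in KG1A, HOXA13 has no KG1A read, and MEIS1 and MEIS2 are each near the floor in the opposite line.

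Growth factor receptors differed by subunit. FGFR1, the receptor rearranged in KG1A, had 199.8, 195, 218 and 194 CPM there and 6.01, 7.23, 5.91 and 7.41 CPM in U937, a log2 fold change of -4.92 ± 0.07 (SE; adjusted p = 7.66e-19). Counts per gene cannot separate reads of the fusion from reads of the whole gene. FGFR1OP2, the fusion partner, was named after its values were seen and was 167 ± 3.68 CPM in KG1A and 50.3 ± 2.55 CPM in U937. Both genes of the GM-CSF receptor were higher in U937. CSF2RA, its alpha chain, had 24.1, 20.7, 22.3 and 18.2 CPM in U937 and 4.26, 3.62, 4.75 and 4.95 CPM in KG1A, a log2 fold change of 2.27 ± 0.12, and CSF2RB, the common beta chain, had 34.7 ± 2.26 CPM in U937 and 6 reads in KG1A. CSF2RA lies in the pseudoautosomal region, where mapping is uncertain. IL3RA lies there too, and it was lower in U937 with a log2 fold change of -3.33.

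Chemokine and cytokine receptors differed too. CXCR4, the receptor for CXCL12, had 393, 339, 407 and 324 CPM in U937 and 1.14, 1.11, 1.02 and 0.733 CPM in KG1A, a log2 fold change of 8.50 ± 0.13 (SE; adjusted p = 7.66e-19). IL13RA1, a receptor chain for IL-4 and IL-13, had no read in KG1A and 23.5 ± 1.53 CPM in U937, at least 338-fold higher. Of 41 receptors tested, 22 were higher in U937, 16 were lower and 3 were not called, with a median log2 fold change of 0.30. Over all tested genes, 43.0% were higher and 43.4% lower. By the 4-fold limit, 12 receptors were higher and 7 lower, against 11.2% and 12.9% of all tested genes.

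Some receptors were close to level. IL1RAP, the IL-1 receptor accessory protein, had 33.2, 34.8, 31.2 and 31.0 CPM in KG1A and 30.6, 32.7, 34.7 and 33.1 CPM in U937, and its groups overlapped, with a log2 fold change of 0.01 ± 0.06 (adjusted p = 0.868). CSF3R, the receptor for granulocyte colony-stimulating factor, was 77.9 ± 5.45 CPM in KG1A and 84.0 ± 5.17 CPM in U937 (adjusted p = 0.0903), and with the replicate block the adjusted p was 0.00749, but 0.211 with libraries 1 and 3, and 2 and 4, summed. TFRC, the transferrin receptor, had a log2 fold change of 0.08 (adjusted p = 0.0455), and the adjusted p rose to between 0.0639 and 0.147 without any of the 4 KG1A replicates or U937 replicate 2. IFNGR1, the interferon gamma receptor, had a log2 fold change of -0.19 (adjusted p = 0.00217).

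Feedback genes of the FGF and ERK pathway moved in both directions. SPRED1, an inhibitor of RAS activation, had 25.6, 28.8, 23.4 and 26.3 CPM in KG1A and 1 read in U937. ETV4, an ETS factor induced by ERK, had 29.7, 29.9, 26.4 and 26.6 CPM in U937 and 0.757, 0.742, 1.58 and 1.74 CPM in KG1A, a log2 fold change of 4.53 ± 0.16 (SE; adjusted p = 5.70e-14). DUSP4, a nuclear phosphatase of ERK, was 49.5 ± 2.47 CPM in U937 and 5.21 ± 0.79 CPM in KG1A. The cytosolic phosphatase DUSP6, named after its values were seen, had the opposite order, at 54.4 ± 1.65 and 234 ± 8.30 CPM. Of 20 genes tested, 9 were higher in U937, 9 were lower and 2 were not called, and the median log2 fold change was 0.27. Those counts were close to the shares over all tested genes, 43.0% higher and 43.4% lower. At least 4-fold, 4 were higher and 7 lower, against 11.2% and 12.9% of all tested genes.

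Kinases of antigen receptors and Fc receptors differed by family member. FGR, a Src family kinase of phagocytes, was 51.2 ± 4.19 CPM in U937 and had 4 reads in KG1A. ZAP70, the kinase of the T cell receptor, had 134, 141, 124 and 139 CPM in KG1A and 15 reads in all of U937, a log2 fold change of -8.69 ± 0.11 (SE; adjusted p = 1.73e-19). GRAP2, an adaptor of T cell signalling, had 57.2 ± 2.61 CPM in KG1A and 5 reads in U937. SYK, the kinase of Fc and B cell receptors, was named after its values were seen and was 347 ± 16.3 CPM in KG1A and 325 ± 13.5 CPM in U937 with overlapping libraries (adjusted p = 0.0608, 0.00068 with the replicate block and 0.251 with libraries 1 and 3, and 2 and 4, summed). Of 32 genes in this group tested, 12 were higher in U937, 17 were lower and 3 were not called, with a median log2 fold change of -0.29. Over all tested genes, 43.0% were higher and 43.4% lower. The order was the other way at least 4-fold, with 10 higher and 8 lower, against 11.2% and 12.9% of all tested genes.

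KG1A expressed many genes of lymphoid cells. CD7, an immunoglobulin superfamily protein of T cells and of some immature leukaemias, had 68.7, 52.1, 61.9 and 52.2 CPM in KG1A and no read in U937, at least 929.9-fold lower there. CD96, a receptor of T and NK cells, had 888, 856, 862 and 872 CPM in KG1A and 10 reads in U937, a log2 fold change of -11.94 ± 0.13 (SE; adjusted p = 4.04e-20). LEF1, a WNT pathway factor of lymphoid progenitors, had 127, 132, 126 and 114 CPM in KG1A and 1 read in U937. Of 38 T and NK genes looked up, 19 were tested, and 17 of these were lower in U937 and 2 higher, with a median log2 fold change of -7.42, or -6.81 at the bounds. All 17 were at least 4-fold lower. Summed over the list, KG1A had 1542 to 1581 CPM and U937 182 to 221 CPM per library, and NKG7, a cytotoxic granule protein, made up most of the latter at 207, 179, 211 and 171 CPM. The T cell genes CD2, CD5, CD8A and TCF7 were among the 19 that were too low to test, so the set in KG1A was partial, and whether other cells had a part in it was not tested.

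RUNX letters recurred upstream of the T and NK genes and are shown for comparison with the granule genes. TGTGGT, on either strand of the 250 bases before the start, was found for 7 of 15 list genes with an entry (46.7%) and for 7.91% of tested genes. Base composition differed here too, with a median of 6 CpG pairs and 50.4% GC in the list against 21 pairs and 64.8% GC in tested genes. The windows lie at chr3:111542058-111542083 (CD96, plus strand), chr4:108166343-108166368 (LEF1, minus strand), chr11:118342890-118342915 (CD3D, minus strand) and chr10:70602788-70602813 (PRF1, minus strand). Capitals mark the match, and the windows were chosen after the values were seen.
CD96: tcagtcctgaACCACAttactttcct
LEF1: aaagaaagtgTGTGGTtttgagggcg
CD3D: tgtgtgtaaaTGTGGTtgcattgtca
PRF1: aggacctgtgACCACAgctgggggcg
All 4 genes had 10 or fewer reads in U937, but windows were taken only from genes at least 4-fold lower there. Of the 15 genes with an entry, a match was present for 7 of 13 at least 4-fold lower and 0 of the other 2.

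B cell genes were divided between the lines. BANK1, a B cell scaffold protein, had 374, 435, 389 and 444 CPM in KG1A and 4 reads in U937. IGHM, the constant region of IgM, had 553, 511, 546 and 493 CPM in KG1A and 11 reads in U937, a log2 fold change of -11.08 ± 0.10 (SE; adjusted p = 1.04e-20). IGHD had 729 reads in KG1A and none in U937. In the other direction, FCER2, the low-affinity IgE receptor, had 41.7, 40.7, 42.8 and 37.8 CPM in U937 and no read in KG1A, at least 584-fold higher. Of 18 genes tested, 8 were higher in U937, 7 were lower and 3 were not called, with a median log2 fold change of 0.03. Shares over all tested genes were 43.0% higher and 43.4% lower. At least 4-fold, 6 were higher and 6 lower, against 11.2% and 12.9% of all tested genes. Summed, the list reached 1043 to 1065 CPM in KG1A and 116 to 124 CPM in U937, and IGHM and BANK1 made up most of the KG1A sum. Immunoglobulin genes have near-identical copies, and their counts are uncertain for that reason.

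Among erythroid, megakaryocyte, mast cell and endothelial genes tested, more were lower in U937 than higher, and mast cell genes went both ways. ITGA2B, the platelet integrin chain CD41, had 491, 506, 496 and 504 CPM in KG1A and 15 reads in U937, a log2 fold change of -10.58 ± 0.12 (SE; adjusted p = 7.75e-20). CPA3, the mast cell carboxypeptidase, had 72.1, 63.7, 74.4 and 71.3 CPM in KG1A and 1 read in U937. TPSAB1, a mast cell tryptase, was the opposite, with 272, 230.1, 265 and 207 CPM in U937 and 0.189, 1.11, 0.373 and 0.458 CPM in KG1A. TPSAB1 shares reads with near-identical tryptase genes, so its level is uncertain. Of 14 erythroid, megakaryocyte and mast cell genes tested, 8 were lower in U937, 5 were higher and 1 was not called. The median log2 fold change was -3.58, or -2.31 at the bounds, with 7 at least 4-fold lower and 3 at least 4-fold higher. In this list 22 of 36 looked up were too low to test. The haemoglobin genes HBA1, HBB and HBG1 were among those untested.

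EMCN, an endothelial sialomucin, had 45.5, 43.4, 46.9 and 45.2 CPM in KG1A and no read in U937, at least 718-fold lower there. ERG, an ETS factor of endothelium and stem cells, had 187, 196, 188 and 190.4 CPM in KG1A and 5 reads in U937, a log2 fold change of -10.68 ± 0.12 (SE; adjusted p = 6.79e-20). Of 13 endothelial genes tested, 8 were lower in U937 and 5 were higher, with CLDN5, a tight junction protein, at 39.1 ± 1.18 CPM in U937 and 0.348 ± 0.158 CPM in KG1A. Over all tested genes, 43.4% were lower and 43.0% higher. By the 4-fold limit, 8 endothelial genes were lower and 2 higher, against 12.9% and 11.2% of all tested genes. Stromal and epithelial markers summed to 33.1 to 37.8 CPM in KG1A and 21.0 to 24.2 CPM in U937, and EPCAM and PDGFRB were among the 18 of 25 genes too low to test.

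Adhesion receptors were mostly higher in KG1A. ITGA5, the fibronectin receptor chain, had the largest rise in U937, with 492, 473, 492 and 471 CPM in U937 and 102, 100.4, 102 and 100.2 CPM in KG1A, a log2 fold change of 2.25 ± 0.04 (adjusted p = 6.74e-18). The leukocyte integrin ITGAL and the hyaluronan receptor CD44 were named after their values were seen, and their log2 fold changes were -3.72 and -2.82. Of 27 adhesion genes tested, 17 were lower in U937, 7 were higher and 3 were not called, with a median log2 fold change of -1.14. Over all tested genes, 43.4% were lower and 43.0% higher. By the 4-fold limit, 10 adhesion genes were lower and 1 higher, against 12.9% and 11.2% of all tested genes.

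MHC class II expression separated the lines, whereas class I did so in part. HLA-DRA, the alpha chain of HLA-DR, had 47.2, 49.6, 50.7 and 45.0 CPM in U937 and 0, 0.0927, 0 and 0.0917 CPM in KG1A, 2289 reads against 2. CD74, the invariant chain that chaperones class II, had 136, 111, 139.8 and 105 CPM in U937 and 4 reads in KG1A, a log2 fold change of 10.21 ± 0.24 (SE; adjusted p = 2.75e-16). CIITA, the class II transactivator, was named after its values were seen and was 35.7 ± 3.30 CPM in U937 and 7.92 ± 1.17 CPM in KG1A. Of 12 class II pathway genes tested, 11 were higher in U937 and 1, RFX5, was lower, with a median log2 fold change of 3.04, while 8 of 20 looked up, HLA-DPA1 and HLA-DQA1 among them, were too low to test.

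Among class I genes, NLRC5, the class I transactivator, was lower in U937, with a log2 fold change of -2.46. HLA-B was 283 ± 15.4 and 272 ± 7.95 CPM with overlapping libraries (adjusted p = 0.273), and it was named after its values were seen. Of 27 class I pathway genes tested, 15 were lower in U937, 9 were higher and 3 were not called, with a median log2 fold change of -0.42. Over all tested genes, 43.4% were lower and 43.0% higher. By the 4-fold limit, 5 class I genes were lower and 2 higher, against 12.9% and 11.2% of all tested genes. HLA genes are polymorphic and alike, so alleles that differ from the reference can lose reads, and levels of single HLA genes are uncertain.

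Most interferon-stimulated genes were higher in the untreated KG1A cells. GBP4, a guanylate-binding GTPase, had 167, 182, 165 and 185 CPM in KG1A and 3 reads in U937, a ratio of 2770.2 with a 95% counting interval of 948 to 13436. GBP1 had 74.2, 72.0, 74.8 and 76.7 CPM in KG1A and 1 read in U937, and EPSTI1, an interferon-responsive protein, had 1042 reads in KG1A and none in U937. All 51 genes of the list were tested, and 38 were lower in U937, 8 were higher and 5 were not called, with a median log2 fold change of -1.39. In this list 21 genes were at least 4-fold lower. MX2, an antiviral GTPase, had the largest rise in U937, with 138, 136, 141 and 138 CPM in U937 and 0.663, 0.464, 0.652 and 0.642 CPM in KG1A, a log2 fold change of 7.81 ± 0.09 (SE; adjusted p = 5.44e-20). ADAR, an RNA-editing enzyme of the same list, had overlapping libraries at 416 ± 6.86 CPM in KG1A and 414 ± 6.93 CPM in U937 (adjusted p = 0.828), and it was named after its values were seen.

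The windows around interferon response letters are printed for 5 of these genes, because all 5 were at least 4-fold lower in U937. GAAANNGAA, on either strand of the 250 bases before the start, was found for 23 of 41 list genes with an entry (56.1%) and for 5.61% of tested genes. It was present for 11 of the 17 genes with an entry that were at least 4-fold lower in U937 and for 12 of the other 24. The list had a median of 6 CpG pairs and 53.6% GC, and the tested genes 21 pairs and 64.8% GC, so base composition differed. The windows lie at chr1:89065316-89065344 (GBP1, minus strand), chr13:42992273-42992301 (EPSTI1, minus strand), chr1:78620274-78620302 (IFI44L, plus strand), chr2:6865796-6865824 (RSAD2, plus strand) and chr3:122680800-122680828 (PARP14, plus strand). Capitals mark the match, and these windows too were chosen after the values were seen.
GBP1: acgaagtactTTCAGTTTCatattactct
EPSTI1: ctgattctgaGAAACCGAAactcagctgt
IFI44L: tcctagtgagGAAAAAGAAagttagtggc
RSAD2: agcgggaaacGAAAGCGAAgcgttgcggg
PARP14: tccaggaaacGAAAGCGAAagagtcaaag
RSAD2, an antiviral enzyme, had 259, 276, 260.2 and 283 CPM in KG1A and 0.987 ± 0.399 CPM in U937, a log2 fold change of -8.08, while that of PARP14, an ADP-ribosyltransferase, was -2.35. IFI44L had 972 reads in KG1A and 1 in U937.

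**Figure D4:**
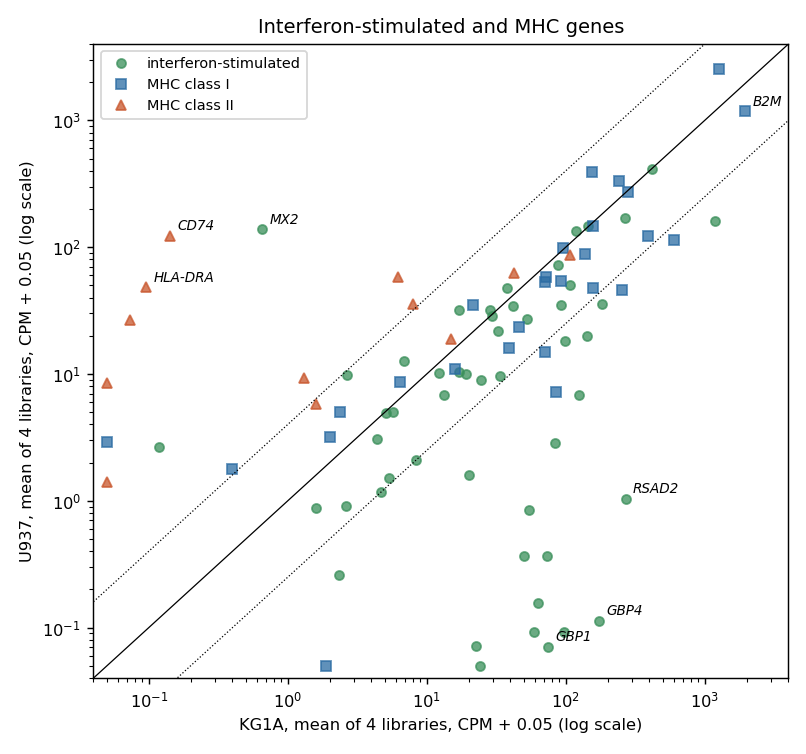
Mean CPM plus 0.05 of 4 libraries in U937 against KG1A, both on log axes, for tested interferon-stimulated genes (circles), MHC class I (squares) and class II genes (triangles), with the line of equality solid and 4-fold lines dotted. GBP4, GBP1 and RSAD2 fall far below the lower 4-fold line, HLA-DRA, CD74 and MX2 lie far above the upper one, and most class I genes lie between.

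Inflammatory genes were divided by pathway member. IL1B, interleukin-1 beta, had 81.9, 84.2, 85.0 and 82.4 CPM in KG1A and 1.69, 1.60, 2.11 and 2.00 CPM in U937, a log2 fold change of -5.49 ± 0.08 (SE; adjusted p = 9.48e-19). TNFSF10, the death ligand TRAIL, and LTB, lymphotoxin beta, were likewise lower in U937, with log2 fold changes of -5.57 and -5.52. PYCARD, the inflammasome adaptor ASC, was the U937 gene, with 60.7, 65.1, 51.9 and 57.2 CPM there and 6 reads in KG1A. TNFAIP2 had 2504 reads in U937 and 2 in KG1A. Of 37 genes tested, 20 were lower in U937, 15 were higher and 2 were not called, with a median log2 fold change of -0.64. Shares over all tested genes were 43.4% lower and 43.0% higher. At least 4-fold, 12 were lower and 9 higher, against 12.9% and 11.2% of all tested genes.

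Lysosomal and cytoskeletal genes were mostly higher in U937. Of 40 lysosomal genes tested, 33 were higher in U937, 3 were lower and 4 were not called, with a median log2 fold change of 1.22, and 11 were at least 4-fold higher. CTSZ, cathepsin Z, had 248, 292, 249 and 296 CPM in U937 and 0.663, 0.556, 0.838 and 0.917 CPM in KG1A, a log2 fold change of 8.49 ± 0.12 (SE; adjusted p = 5.66e-19). CTSH, cathepsin H, was 65.8 ± 1.30 CPM in U937 and 0.653 ± 0.209 CPM in KG1A. The 3 that were lower in U937 were IDS, SCARB2 and LIPA, of which IDS, iduronate sulfatase, was 55.0 ± 3.11 CPM against 169.6 ± 6.04 CPM. Of 9 tested genes in a list for the NADPH oxidase, which makes superoxide in phagocytes, 5 were higher in U937 and 4 lower. Over all tested genes, the shares were 43.0% and 43.4%. At least 4-fold, 3 were higher and 0 lower, against 11.2% and 12.9% of all tested genes. The cytosolic subunit NCF4 was 194 ± 7.10 CPM in U937 and 0.185 ± 0.105 CPM in KG1A. The membrane subunit CYBB, named after its values were seen, was low in both, at 3.78 ± 0.50 CPM in U937 and 4.81 ± 0.17 CPM in KG1A (adjusted p = 0.0287), and the adjusted p was 0.0509 to 0.0899 without KG1A replicate 1, 2 or 4 or U937 replicate 1 or 2.

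In the S100, annexin and cytoskeletal list, 30 of 39 genes tested were higher in U937, 8 were lower and 1 was not called, with a median log2 fold change of 1.09. LMNA, which encodes the A-type lamins of the nuclear envelope, had 202, 213, 181 and 208 CPM in U937 and 4 reads in KG1A, a log2 fold change of 10.91 ± 0.16 (SE; adjusted p = 8.73e-19). CNN2, an actin-binding calponin, had 170.2, 182, 172 and 183 CPM in U937 and 9 reads in KG1A. S100A9, a calcium-binding protein of phagocytes, had 548 reads in U937 and none in KG1A, at least 165-fold higher. The KG1A side held ANXA1, a phospholipid-binding protein, at 308, 347, 322 and 347 CPM against 44.8 ± 1.72 CPM, and S100Z, with 1140 reads against none.

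Most proliferation genes were higher in U937. Of 40 tested, 28 were higher in U937, 4 were lower and 8 were not called, with a median log2 fold change of 0.55, and 2 were at least 4-fold higher. RRM2, the small subunit of ribonucleotide reductase, had 231, 230.2, 242 and 236 CPM in KG1A and 570.2, 593, 578 and 618 CPM in U937, a log2 fold change of 1.33 ± 0.04 (SE; adjusted p = 9.84e-15). RRM1, the large subunit, had 128, 133, 136 and 134 CPM in KG1A and 222, 222, 222 and 239.9 CPM in U937, a log2 fold change of 0.77 ± 0.04 (adjusted p = 2.06e-11). The groups did not overlap for either subunit. MCM7, a subunit of the replicative helicase, had the largest change of the list, at 672 ± 30.6 CPM in U937 and 122 ± 7.26 CPM in KG1A, and MCM6, another subunit, was 812 ± 64.3 and 194 ± 9.46 CPM. BIRC5, the inhibitor of apoptosis survivin, went the other way, with a log2 fold change of -1.10. MYC, the growth-promoting factor, was lower in U937, at 419, 412, 426 and 413 CPM against 726, 722, 691 and 709 CPM, a log2 fold change of -0.77 ± 0.04 (adjusted p = 5.65e-12).

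Tumour suppressors went both ways, much as all tested genes did. WT1, a zinc-finger factor of immature leukaemia cells, was 71.1 ± 2.46 CPM in KG1A and 0.736 ± 0.302 CPM in U937. STAG2, a cohesin subunit, had 20.3 ± 3.76 CPM in KG1A (SD, n = 4) and 243, 268, 249 and 280.0 CPM in U937, a log2 fold change of 3.68 ± 0.09 (adjusted p = 3.42e-16). CDKN2A, which encodes p16 and p14ARF, was 87.8 ± 2.75 CPM in U937 and 8.40 ± 1.11 CPM in KG1A. Of 37 genes tested, 19 were higher in U937, 15 were lower and 3 were not called, with a median log2 fold change of 0.22. At least 4-fold, 4 were higher and 5 were lower. Over all tested genes, 43.0% were higher and 43.4% lower, with 11.2% and 12.9% at least 4-fold.

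**Figure D5:**
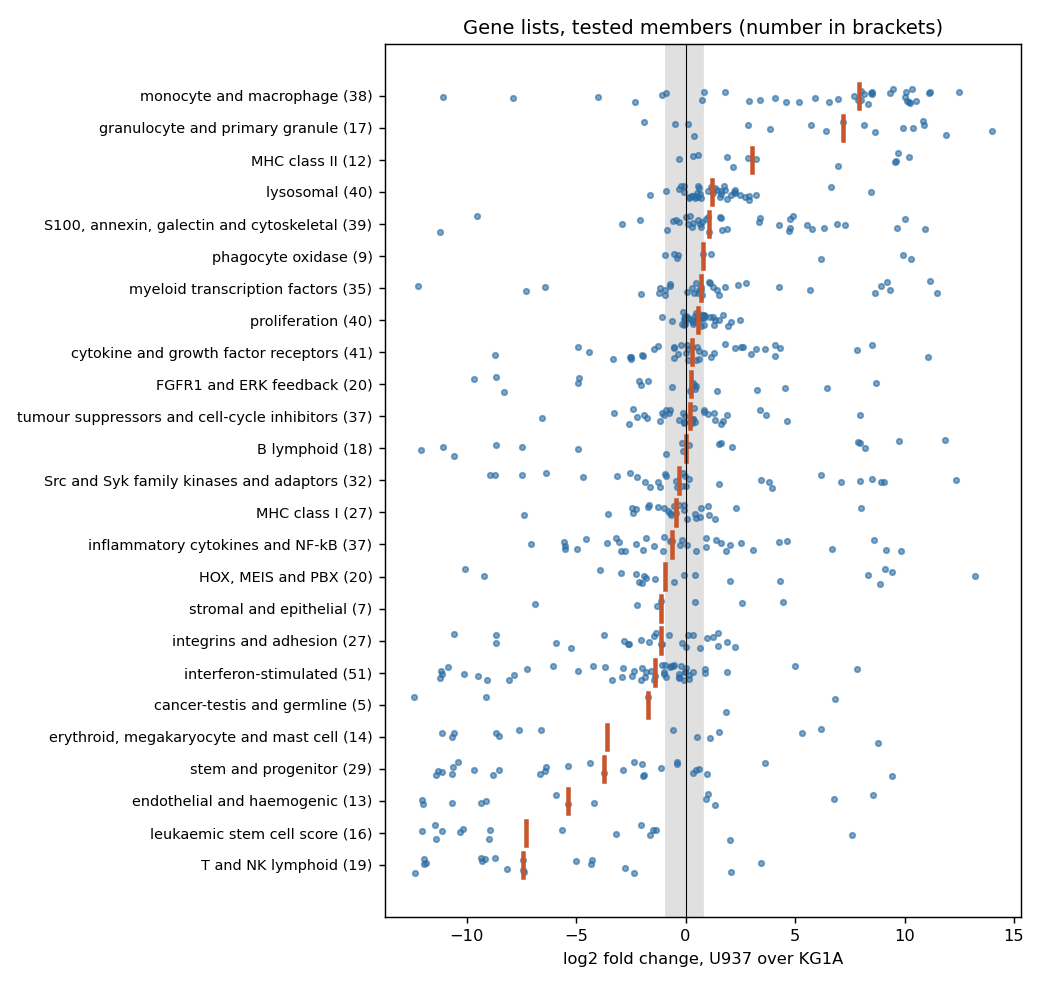
Log2 fold change, U937 over KG1A, of every tested member of 25 gene lists, 1 point per gene, with the list median as an orange bar and the range between the quartiles of all tested genes shaded in grey. Monocyte and granule lists have medians of 7.93 and 7.20 (5.71 and 6.43 at the bounds), and the T and NK and leukaemic stem cell lists -7.42 and -7.30 (-6.81 and -6.07 at the bounds).

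Ranked by the fitted fold change, the leading genes had no read in 1 line, with PRTN3 the exception, and their order depends on the fit because such folds are not bounds. On the KG1A side, EPB41L2, a membrane skeleton protein, had 214, 230.0, 214 and 224 CPM and no read in U937, at least 3496-fold lower there. CALCRL, the receptor subunit for CGRP and adrenomedullin, had 154, 144, 159 and 152 CPM in KG1A and no read in U937, at least 2412-fold lower. HPGDS, the haematopoietic prostaglandin D synthase of mast cells, had 139, 131, 148 and 134 CPM in KG1A and no read in U937. SCN2A, a neuronal sodium channel, and MDGA2, a neuronal adhesion protein, were also in the KG1A set, at 147 ± 3.91 and 158 ± 4.87 CPM. The other genes among the 12 named by that rank were PLOD2, GUCY1A1, SLC5A12, GPC6, MAN1A1, ZNF141 and MAGED1, each with no U937 read and bounds from 942-fold to 1693-fold, which lie below the measured fall of CD34. MAGED1 also belongs to a list of cancer-testis and germline genes, of which 5 of 46 in the table were tested, 2 higher and 3 lower in U937.

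On the U937 side the same rank named PRTN3, and the other 11 genes had no read in KG1A. GPR153, an orphan receptor, had 141, 118, 129 and 107 CPM in U937, at least 1773-fold higher. BEX1 had 109, 134, 106 and 140.2 CPM in U937, at least 1753-fold higher. MGLL, monoacylglycerol lipase, had 105, 111, 104 and 108 CPM in U937 and no read in KG1A. CST3, the protease inhibitor cystatin C, and SERPINB2, a plasminogen activator inhibitor, were 80.4 ± 3.08 and 61.1 ± 4.58 CPM in U937. Also among them were HOXA13, MBNL3, CPVL and FERMT1.

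Runs of neighbouring genes were silent in U937 and expressed in KG1A. On GRCh37 chromosome 19, between 20278037 and 21133503, ZNF486, ZNF737, ZNF626, ZNF66 and ZNF85, a row of zinc-finger genes, each had at most 3 reads in U937 and 3.82 to 42.8 CPM in KG1A. On chromosome 2, between 165510134 and 166248818, the run was COBLL1, SLC38A11, SCN3A and SCN2A, with 2.49 to 170.2 CPM in KG1A. A run of immunoglobulin joining segments on chromosome 14, IGHJ1 to IGHJ6 with IGHD7-27, met the same rule. No run of at least 4 neighbours was silent in KG1A and expressed in U937. Zinc-finger genes of this cluster are alike in sequence, and reads that map to several of them may be lost or misplaced.

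By chromosome, the share of tested genes at least 4-fold lower in U937 was highest on chromosome 4, at 26.2% of 541 genes, where 7.21% were at least 4-fold higher. The median log2 fold change was lowest on chromosome 11, at -0.85 over 884 genes, and highest on chromosome 20, at 0.61 over 373 genes. These figures describe transcript levels, and gene copy number was not measured.

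The most abundant transcripts were compared per transcript length. Mitochondrial genes filled the first places in both lines, with MT-CO2 at 15541 RPKM in KG1A and MT-CO3 at 19432 RPKM in U937. Among named nuclear genes KG1A was led by EEF2, a translation elongation factor, at 1267 ± 32.6 RPKM, and by ACTB at 1187 ± 54.9 RPKM (SD, n = 4). U937 was led by FTL, the ferritin light chain, at 4844 ± 114 RPKM, against 1139.5 ± 27.1 RPKM in KG1A. SRGN, the proteoglycan that packs granule proteases, stood at 1171 ± 51.0 RPKM in U937 and 77.3 RPKM in KG1A, so it was among the most abundant transcripts of the promonocytic line and not of the immature line.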

How the data were processed

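RNA was extracted with Trizol and columns and stranded polyadenylated libraries were made with a Kapa kit, per the labels' protocols. The submitters' processing notes name bcl2fastq 2.18.0.12, TopHat2, HTSeq 0.11.2 and hg19/GRCh37. The sources used here do not give the gene annotation or whether HTSeq counted by strand. The values used as counts are the authors' deposited whole-number read counts per gene, with an exon length in bases beside each gene. The deposited RPKM values equal count over exon length and library total (largest relative deviation 1.67e-07), so they are no independent measure and served only to compare levels between genes. No column was left over (0 columns without a sample).

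Groups follow the labels: 4 DMSO libraries of each line. Genes were kept by edgeR's filterByExpr (minimum count 10, minimum total 15), scaled by TMM and tested with edgeR 4.0.16's quasi-likelihood test in R 4.3.3, on these 8 libraries without covariates, with Benjamini-Hochberg adjustment over all genes tested. A call is an adjusted p under 0.05. The script was tested on simulated data. Where a line had no read, the fold is a lower bound against 3 reads over the group. Where it had 1 to 3 reads, the ratio of reads has a 95% counting interval, which covers counting error only. RefSeq promoters came from GRCh38.p14 and were used for sequence only. Python 3.11.15 made the tables and figures.

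Deviations from the group means correlated at 0.330, 0.286, 0.293 and 0.335 over 11654 genes between libraries of the same replicate number, so a replicate block was run. Libraries with other numbers of the same odd or even set correlated alike, at 0.265 to 0.330, and those of unlike sets at -0.358 to -0.268, so the pairing goes no further than the odd and even sets. The fit with the replicate number as a block, DESeq2 1.42.0, limma 3.58.1, other scalings and filters, and leaving out each library were alternatives. Genes named in the text were 23 fixed genes, the 12 with the largest fitted change each way among called genes without overlap and at least 20 CPM, the 3 called members of each list with the largest change each way and at least 5 CPM, the 10 with the highest RPKM per line, runs of at least 4 neighbours with at most 3 reads in a line, and receptors and factors within 0.25 log2 of level. Members and gene lists were chosen with earlier results of these data known, and genes outside the rule are marked as named after their values were seen. Some genes that met the rule are not reported here.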

Additional observations from a re-analysis of the deposited data

Results flagged for a closer look

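In 9 of 292 groups of 4 libraries, the highest or lowest library stood apart from the others by more of the group's range than Dixon's 95% critical value for 4 samples. Chance flags about 1 in 20 groups. The share of the range was 0.9721 for RRM1 in U937 (222 to 239.9 CPM, high library), 0.8753 for MS4A7 in U937 (6.93 to 7.91 CPM, low library) and 0.8677 for CYBC1 in KG1A (129 to 134 CPM, high library). It was 0.9296 for ERAP2 in U937 (6.13 to 7.53 CPM, low library), 0.8515 for ISG15 in U937 (11.8 to 14.7 CPM, high library) and 0.8936 for IDS in KG1A (166 to 179 CPM, high library). It was 0.8371 for S100A9 in U937 (10.8 to 13.2 CPM, high library), 0.8304 for MT-CO2 in KG1A (10208 to 12242 CPM, high library) and 0.8443 for PARP14 in U937 (34.4 to 38.3 CPM, high library). Groups with a mean under 5 CPM were not looked at.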

How the results depend on the processing

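Across 26 alternatives the numbers of genes higher and lower in U937 moved by over 1.5 times only when the test was against a 2-fold change (glmTreat), which gave 2719 and 3121. The numbers at least 4-fold higher and lower moved so far with limma on log2(RPKM + 0.5), to 1077 and 1185. They did so too with no filter on low counts, to 2705 and 3103, where more genes are tested. With limma on log2(RPKM + 0.1) they were 1587 and 1714, within 1.5 times. Those limma fits differed only in the number added to RPKM, and the cause was not tested further. Leaving out each library gave 6479 to 6556 genes higher, 6553 to 6678 lower, 1710 to 1776 at least 4-fold higher and 1976 to 2058 at least 4-fold lower. With the replicate block, 6722 genes were higher and 6755 lower, and 1704 and 1952 were at least 4-fold higher and lower. Among named genes the block changed the calls of CSF3R, SYK, MT-CO3, MT-ATP6 and MT-ND4, and none of these was called with libraries 1 and 3, and 2 and 4, summed (adjusted p of 0.206 to 0.373). Of 221 named genes tested, 185 kept their call in every alternative, where a change of sign counted only if either fit called the gene. By gene and setting, 82 pairs lost a call, 51 gained one and 1 reversed. The reversed gene was ADAR, with a log2 fold change of 0.075 in a model of all 16 libraries. Of 100 list counts, 59 stayed within 1.5 times in all alternatives. The odd-numbered and even-numbered libraries gave the same sign for 219 of 221 genes, the exceptions being MT-ND2 and IL1RAP. Depth limits genes with few reads in a line, and a group without a read is bounded only at 3 reads over its 4 libraries.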
